A study of Rattus norvegicus with 65 samples.

Results

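Gnai1, Gnai2, Gnai3, Gnas and Gnaq encode alpha subunits of heterotrimeric G proteins. They are 5 of the 10411 genes read on the arrays, and were chosen by name as Gnai1 and its relatives, Gnai1 itself on its higher level in the transplants of this series. For that reason the Gnai1 change between primary tumors and transplants is given below as a description, with no test. The platform annotation assigned 8 of 15866 probe sets to the 5 genes. Gnai1, Gnai2 and Gnaq each had 1 probe set of their own and Gnas had 3. The remaining 2 probe sets were annotated to Gnai1 and Gnai3 together, so they are called the shared probe sets and are credited to neither gene, and Gnai3 had no probe set of its own.

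The study began with carcinogen-induced mammary tumors of rats, and pieces of each primary tumor were passed serially through genetically matched (syngeneic) rats for 5 transplant generations. The labels number 11 lines of descent (series 10, 13, 17, 19, 25L, 25R, 32, 33, 34, 36 and 42), and the 65 arrays hold 11 tumors of each generation apart from transplant 5, which has 10 because series 10 ends with transplant 4 here. Each array is 1 tumor, so a line has 1 tumor per generation. Lines 25L and 25R carry 1 series number and may stem from the same animal, which is not stated; the counts and tests over 11 lines treat them as separate. The carcinogen, the strain and the age of the hosts are not given in the sources used here, and the tumors are whole tissue.

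G alpha subunits bind GTP when a G protein-coupled receptor is activated, leave the beta and gamma subunits, and act on an effector until they hydrolyse the GTP. The Gi subunits encoded by Gnai1, Gnai2 and Gnai3 inhibit adenylyl cyclase, the Gs subunit encoded by Gnas stimulates it, and the Gq subunit encoded by Gnaq activates phospholipase C beta. In mammary epithelium Gs and Gi set the level of cyclic AMP downstream of hormone and chemokine receptors, and Gi subunits also take part in orienting the mitotic spindle.

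The sequence at the start of Gnai1 is shown because Gnai1 is the member that the comparisons turn on. It spans 250 bases before to 50 bases after the annotated start, at chr4:17705811-17706110 on the plus strand of GRCr8, from RefSeq, with GC boxes (GGGCGG, searched on both strands) in capitals.
Gnai1: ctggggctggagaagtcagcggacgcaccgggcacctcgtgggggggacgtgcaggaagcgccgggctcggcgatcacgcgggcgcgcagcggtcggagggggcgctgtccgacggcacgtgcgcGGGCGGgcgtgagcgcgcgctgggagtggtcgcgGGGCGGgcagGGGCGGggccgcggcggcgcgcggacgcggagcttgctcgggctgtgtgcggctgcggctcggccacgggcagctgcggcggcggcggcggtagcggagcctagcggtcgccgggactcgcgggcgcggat
The window held 3 GC boxes. At least 1 was present in 33.1% of 33469 rat promoters of the same length, and 3 or more in 9.0%. Its GC content was 80.3%, above 99.1% of those promoters, whose median was 51.7%. Neither TGACG, the core of the cyclic AMP response element (in 21.2% of promoters), nor TATAAA (in 14.2%) occurred in it on either strand. The promoter table also held Gnaq, with 2 GC boxes and a GC content of 80.7%, and 3 starts of Gnas, with 1, 0 and 4 GC boxes. These matches describe letters in a window, and the arrays do not read promoters.

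All levels are log2 of the deposited intensity after each array was scaled to the same median. Intensities below 39.8 were set to it, so the floor is 5.31 and values there carry no order. A gene was tested if its mean was at least 6.35, which left 8499 genes and 11899 probe sets. Of the 8 probe sets, 6 were tested. The other 2 were dim Gnas probe sets, at the floor on 23 and 58 of 65 arrays, and the third Gnas probe set stood for the gene. Array medians before scaling ranged from 96.1 to 176, the lowest being the transplant 5 tumor of series 32. The probe set levels of different genes are not compared with each other, since each probe set has its own brightness.

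1 line stood apart from the rest before any comparison. In series 42 the summed intensity of 15 luminal epithelial markers was 1030 to 1126 on its 6 arrays, against 1200 to 33286 on the other 59, and Krt18, Krt19, Cldn3, Cldn4, Cldn7 and Tspan8 were at the floor on all 6. Those keratins and claudins mark the luminal cells of the gland, and their RNA did not rise above the floor in this line. The sum of 11 basal myoepithelial markers was also low in series 42, at 1373 to 2870. On the other arrays it ran from 1887 to 21951 (median 10081). Of the basal markers, Oxtr and Tp63 were at the floor on all 6 arrays of series 42. The summed intensity of 11 skeletal muscle genes ran in series 42 from 3987 to 13783 against 1011 to 16323 (median 1533) on the other arrays. Macrophage genes summed to 10111 to 15245 there, and to 3114 to 14800 elsewhere. Results on Gnai1 are therefore given with and without series 42. The part that these cell types play in the values below was not tested, and in whole tissue fewer cells of a type and less RNA per cell cannot be told apart.

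Gnai1 was higher in the transplants than in the primary tumor of the same line in 11 of 11 lines. Among the 10 lines other than series 42, the primary tumors read from 5.31 to 6.34 with a median of 5.69. Transplant 1 tumors read from 5.31 to 6.94 with a median of 6.35. Transplant 2 tumors read from 6.14 to 7.25 with a median of 6.57. The primary and the transplant 1 tumors of these lines thus overlapped, while the highest primary tumor lay within the lower part of the transplant 2 range. Transplant 3 tumors read from 5.31 to 7.70 with a median of 7.08. Transplant 4 tumors read from 5.69 to 7.80 with a median of 6.76. The 9 transplant 5 tumors read from 6.04 to 7.45 with a median of 6.74. The last 3 generations covered much the same range, and each overlapped the primary tumors. In series 42 the primary tumor read 10.34 and its transplants read 11.13, 11.01, 11.11, 11.35 and 11.63 in order of passage. All 5 transplants of that line were above its primary tumor.

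**Figure D1:**
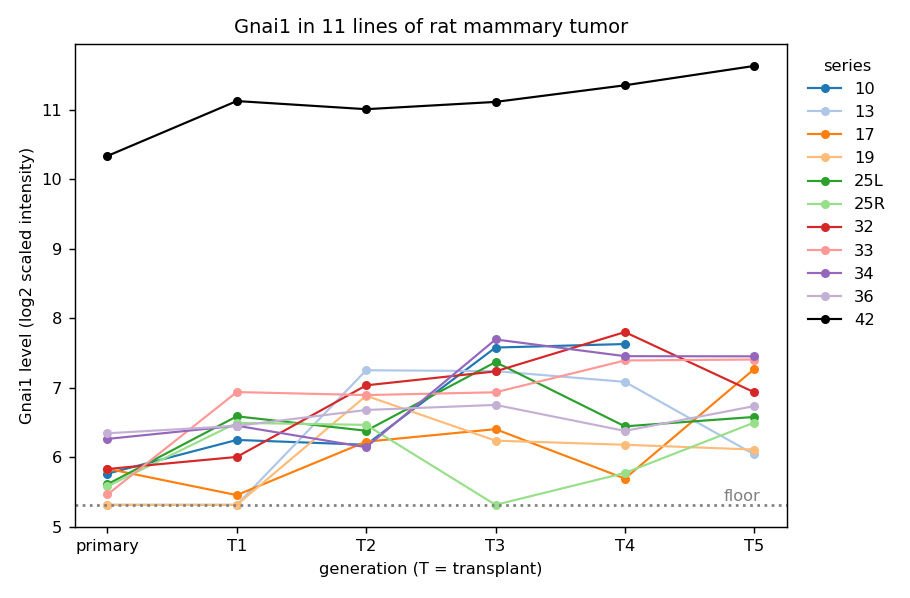
Gnai1 level (log2 scaled intensity, vertical axis) in each tumor by generation (horizontal axis), with 1 line per transplant series and the floor of 5.31 dotted. Series 42 sits between 10.34 and 11.63, and the other 59 tumors sit at or below 7.80.

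In the fit over all arrays the transplants averaged 0.91 ± 0.16 (SE) above the primary tumors, a 1.88-fold higher level (95% interval 0.59 to 1.23 on the log2 scale). By line the difference ran from 0.26 in series 36 to 1.65 in series 33, with an SD of 0.41 (n = 11). In series 42, where the luminal sum was near its lowest on every array, it was 0.91. In series 13 and 19 both the primary and the transplant 1 tumor were at the floor, so their differences, 1.27 and 0.83, are not bounded on either side. Of the 8499 genes tested, 17 had a larger rise than Gnai1, and 44 (0.518%) were higher in all 11 lines. Since Gnai1 was chosen for this rise, these counts only describe where it stands and are no test. At transplant 5 the difference was 1.10 ± 0.21 (SE), or 2.14-fold, and all 10 lines were higher. Over the alternative settings the 2 differences stayed between 0.83 and 0.98 and between 1.00 and 1.17.

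The order of the generations by their mean level without series 42 was primary (5.73 ± 0.36, SD, n = 10), transplant 1 (6.13 ± 0.58), transplant 2 (6.61 ± 0.39), transplant 5 (6.78 ± 0.53, n = 9), transplant 4 (6.78 ± 0.78) and transplant 3 (6.88 ± 0.73). Within lines, transplant 1 exceeded the primary tumor by 0.43 ± 0.55 (SD), with 8 of 11 lines higher, 1 lower and 2 at the floor in both. Transplant 2 exceeded transplant 1 by 0.43 ± 0.78, with only 5 of 11 lines higher. Later steps were 0.25 ± 0.81, -0.06 ± 0.48 and 0.11 ± 0.74. No single step between successive generations was larger than the spread of that step over lines. Counted from the primary tumor, the difference was 0.86 ± 0.62 at transplant 2, 1.11 ± 0.69 at transplant 3 and 1.05 ± 0.78 at transplant 4, with 10 of 11 lines higher each time.

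Gnai2, a widely expressed Gi alpha subunit, did not pass the test in any generation comparison. Its primary tumors read from 10.40 to 11.83 with a median of 10.93. Its transplant 5 tumors read from 10.60 to 11.62 with the same median of 10.93, and the medians of transplants 1 to 4 lay between 10.73 and 10.95. The groups overlapped almost fully. The transplants differed from the primary tumors by 0.04 ± 0.07 (SE; 95% interval -0.09 to 0.17; limma adjusted p = 0.747), with 5 of 11 lines higher. At transplant 5 the difference was 0.17 ± 0.09 (limma adjusted p = 0.177).

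The shared probe sets, which are annotated to Gnai1 and Gnai3 together, were each a little higher in the transplants without passing the test. Which transcript each of them reads is not known here. The brighter of them read from 8.94 to 10.01 with a median of 9.33 in the primary tumors, and from 9.19 to 10.04 with a median of 9.69 at transplant 5. The dimmer read from 7.54 to 9.31 with a median of 8.01 in the primary tumors, and from 7.84 to 9.43 with a median of 8.29 at transplant 5. For both the groups overlapped over most of their range. The brighter differed by 0.15 ± 0.07 (SE; 95% interval 0.02 to 0.28; limma adjusted p = 0.141; 6 of 11 lines higher) between transplants and primary tumors. The dimmer differed by 0.19 ± 0.07 (0.05 to 0.34; limma adjusted p = 0.0808; 8 of 11 lines higher). At transplant 5 the differences were 0.24 ± 0.09 (limma adjusted p = 0.0568) and 0.27 ± 0.10 (limma adjusted p = 0.0535). Each passed at transplant 5 under 4 other settings. Both did when genes below the median level were left out (limma adjusted p = 0.0494 and 0.0472) and without series 36 (0.0431 and 0.0452). The brighter also passed without 25L (0.0215) or 25R (0.0407), and the dimmer without series 32 (0.0373) or without its transplant 5 array (0.0243).

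Gnas, which encodes the stimulatory subunit, read from 11.10 to 12.47 in the primary tumors with a median of 11.56. At transplant 5 it read from 11.09 to 12.54 with a median of 11.55. The groups overlapped fully. The transplants differed from the primary tumors by 0.07 ± 0.08 (SE; 95% interval -0.10 to 0.23; limma adjusted p = 0.652; 7 of 11 lines higher), and transplant 5 by 0.11 ± 0.11 (limma adjusted p = 0.534). The direction at transplant 5 was -0.01 after quantile normalization and without rescaling.

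Gnaq, which encodes the subunit that activates phospholipase C beta, read from 6.02 to 7.35 in the primary tumors with a median of 6.63. At transplant 3, where its mean was highest, it read from 6.36 to 7.70 with a median of 6.98. At transplant 5 it read from 5.31 to 7.50 with a median of 6.86. All 3 groups overlapped, and the value at the floor was the transplant 5 tumor of series 32, the array with the lowest median. The transplants differed from the primary tumors by 0.24 ± 0.13 (SE; 95% interval -0.01 to 0.50; limma adjusted p = 0.224; 6 of 11 lines higher). At transplant 5 the difference was 0.05 ± 0.17 (limma adjusted p = 0.875).

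Among the members read from their own probe sets, 0 of the 3 relatives tested by limma passed between transplants and primary tumors, where 9.50% of all 8499 genes did (4.44% higher, 5.06% lower). At an unadjusted p under 0.05 the count was also 0. At transplant 5 0 of 3 again passed after adjustment, against 14.1% of genes (7.37% higher, 6.72% lower). The share of all genes at an unadjusted p is not given. Unadjusted counts, here and below, are therefore not read as an excess or a lack. In the fit over probe sets, 0 of the other 5 tested probe sets passed in either comparison, against 9.34% and 13.2% of 11899 probe sets. These 5 include the 2 shared probe sets, which may also read Gnai1. The Gnai1 rise of 0.91 rests on 1 dim probe set, at the floor on 5 of 65 arrays. The shared probe sets, also annotated to Gnai1, rose by only 0.15 and 0.19. At an unadjusted p under 0.05 both shared probe sets passed in each comparison. Line by line, the Gnai1 change exceeded that of Gnai2 by 0.87 ± 0.52 (SD; 10 of 11 lines), that of Gnas by 0.84 ± 0.49 (11 of 11), that of Gnaq by 0.66 ± 0.52 (10 of 11) and that of the brighter shared probe set by 0.76 ± 0.41 (11 of 11). These differences carry no test, since Gnai1 was chosen for its rise.

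**Figure D2:**
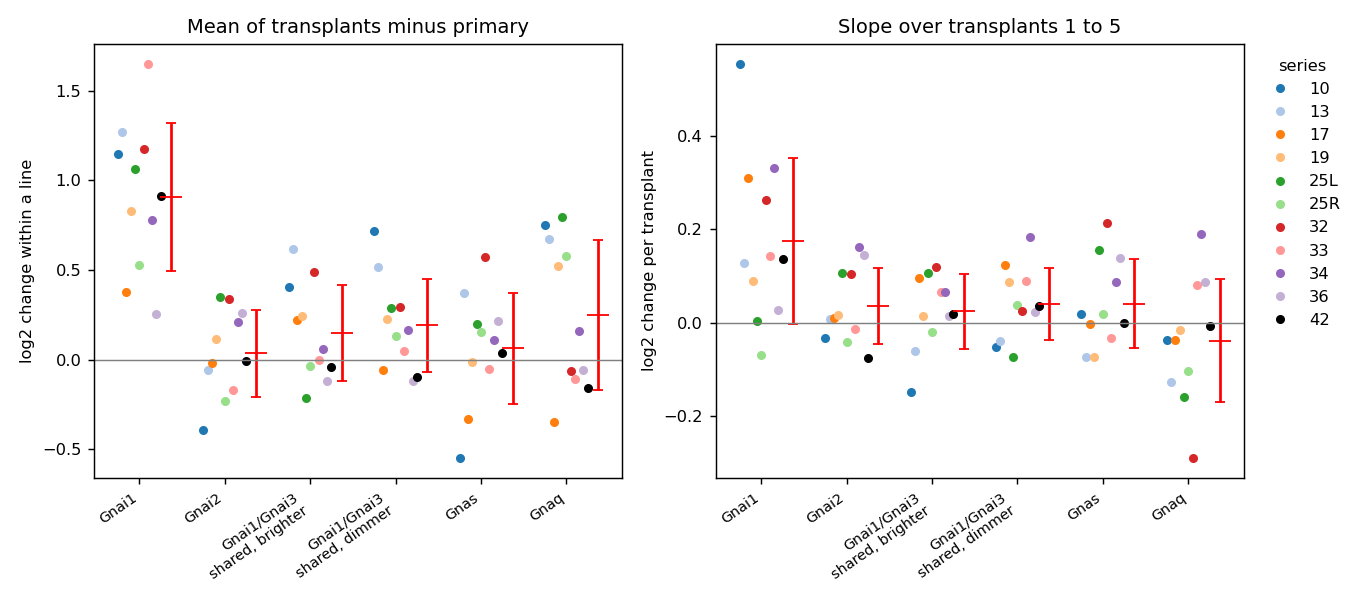
Log2 change of each member in each line (points, coloured by series), with the mean and SD over 11 lines in red, for the mean of transplants minus primary (left) and the slope per transplant over transplants 1 to 5 (right). On the left all 11 Gnai1 points lie above 0, from 0.26 to 1.65. The means of the other probe sets, the shared ones among them, lie between 0.04 and 0.25. On the right 10 of 11 Gnai1 slopes lie above 0.

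The slope over transplants 1 to 5 leaves out the primary tumors that the choice of Gnai1 used. That choice also used the transplant tumors, and earlier results of these data were known. The slope tests, alone and between members, are therefore not fully independent of the choice. Gnai1 rose by 0.15 ± 0.05 (SE) per transplant (limma adjusted p = 0.0481), in 10 of 11 lines, the exception being 25R. Taken over the 11 lines as single values, its mean slope was 0.17 ± 0.18 (SD; exact two-sided sign-flip p = 0.00488). This call was weak: the limma adjusted p stayed below the threshold under 5 of 26 other settings and ran from 0.0311 to 0.688. Without the transplant 1 tumors the slope was 0.07 (limma adjusted p = 0.655). The luminal markers moved over the same tumors, with 10 of 15 falling along the transplants. Of 10 basal myoepithelial markers 5 fell, and of 15 fibroblast markers 1 rose. Of all tested genes 2.79% fell and 2.04% rose. Of 7 macrophage markers Lyz2 rose and Cd14 fell. Their part in the Gnai1 slope was not tested.

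No relative had a slope that passed limma's test, and at an unadjusted p under 0.05 Gnai2 alone did (p = 0.0379). Gnai2 changed by 0.04 ± 0.02 (SE) per transplant (limma adjusted p = 0.196) and Gnas by 0.04 ± 0.02 (limma adjusted p = 0.285). Gnaq had a slope of -0.04 ± 0.04 (limma adjusted p = 0.534). The shared probe sets had slopes of 0.03 ± 0.02 and 0.04 ± 0.02 (limma adjusted p = 0.336 and 0.238). Of all genes 4.82% passed (2.04% rising, 2.79% falling). Gnai1 was chosen for its rise, so its own call is not counted against that share. In the fit over probe sets, where the Gnai1 adjusted p rounded to 0.05, 4.35% passed.

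The difference between slopes was tested directly within lines, over 4 pairs. The Gnai1 slope exceeded that of Gnaq by 0.21 ± 0.21 (SD; 10 of 11 lines; exact sign-flip p = 0.00293, adjusted over the pairs 0.0117). It exceeded that of the brighter shared probe set by 0.15 ± 0.21 (9 of 11 lines; exact p = 0.0176, adjusted 0.0352). It exceeded that of Gnai2 by 0.14 ± 0.20 (8 of 11 lines; exact p = 0.0303, adjusted 0.0404). The Gnas pair, at 0.13 ± 0.20 (8 of 11 lines), missed the threshold (exact p = 0.0508, adjusted 0.0508). The smallest p that 11 lines allow is 0.000977. The Gnai2 pair missed the threshold when series 10, 17, 32, 33, 34 or 42 was left out, with exact p from 0.0547 to 0.0605. The Gnaq and shared pairs stayed below it under 16 of 16 other settings.

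The level of Gnai1 differed among lines, and most of that difference was series 42. With all lines included, lines accounted for 83.9% of its variance and generations for 7.61%, against medians of 42.9% and 6.06% over all tested genes, and 60 genes had a larger share between lines (limma F over series, adjusted p = 6.43e-21). In order of mean level the lines were 19 (6.01 ± 0.60, SD), 25R (6.02 ± 0.53), 17 (6.15 ± 0.65), 13 (6.37 ± 0.94), 25L (6.50 ± 0.56), 36 (6.56 ± 0.19), 10 (6.68 ± 0.86, n = 5), 32 (6.81 ± 0.75), 33 (6.84 ± 0.71), 34 (6.91 ± 0.70) and 42 (11.10 ± 0.43). Up to series 34 each line differed from its neighbour in this order by less than their SD. Series 42 was 4.61 above the mean of the other lines, 24.5-fold, with 5 of the other 59 arrays at the floor. Its lowest array, at 10.34, was above the highest other array, at 7.80. Without series 42 the differences among lines still passed (limma F = 2.75, adjusted p = 0.0205), but lines then accounted for 22.0% of the Gnai1 variance and generations for 36.9%, so the order of the 2 shares turned round. The medians over all tested genes were then 34.2% and 7.82%. Gnai1 was chosen for its rise from primary tumors to transplants, which is part of its generation share. That share is therefore a description and no separate support.

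The relatives also differed among lines. With all lines included, lines accounted for 71.7% of the variance of Gnai2 (limma adjusted p = 6.13e-11), 68.4% of Gnas (adjusted p = 2.01e-09) and 31.4% of Gnaq (adjusted p = 0.013). For the shared probe sets the shares were 60.2% (adjusted p = 1.57e-07) and 79.6% (adjusted p = 2.7e-14). Without series 42 the shares were 38.4% for Gnai2, 41.6% for Gnas, 25.7% for Gnaq, and 48.3% and 68.6% for the shared probe sets, each above the 22.0% of Gnai1. All 4 genes passed, as did 83.5% of all genes, and all 6 probe sets passed, as did 82.9% of probe sets. The Gnaq call was lost with no floor (adjusted p = 0.0953), without series 17 (0.0578) and without series 42 (0.0669). No member differed among lines in its slope, against 24.3% of genes that did: the limma adjusted p was 0.61 for Gnai1, 0.172 for Gnai2, 0.145 for Gnas and 0.421 for Gnaq. At an unadjusted p under 0.05 the count was also 0 of 4.

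**Figure D3:**
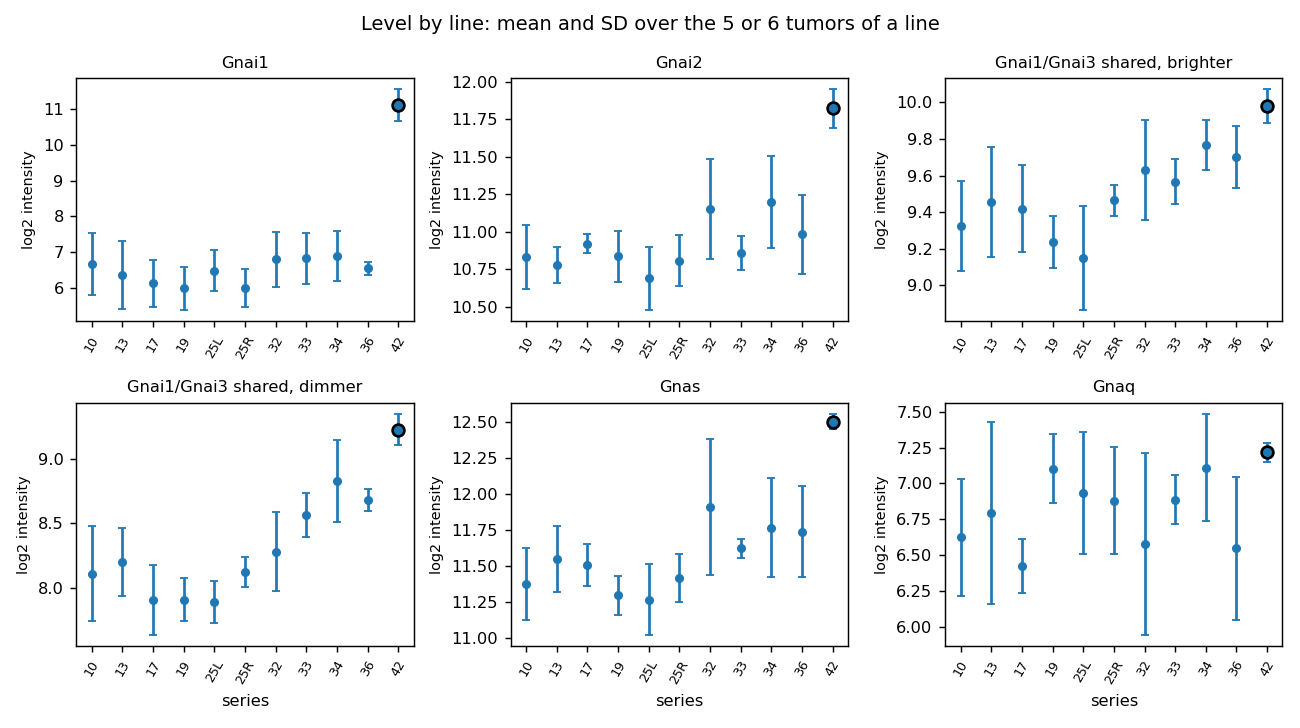
Mean level (log2 scaled intensity, points) and SD (bars) over the 5 or 6 tumors of each line, 1 panel per tested member, each with its own vertical scale that does not start at 0. Series 42, the larger black point, has the highest mean in all 6 panels. For Gnai1 it is 11.10 against 6.01 to 6.91 elsewhere.

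All 6 tested probe sets had their highest line mean in series 42, as did 31.3% of the 8499 genes. Gnai2 averaged 11.82 ± 0.13 (SD, n = 6) there and from 10.69 to 11.20 in the other lines, a difference of 0.92 from their mean. Gnas averaged 12.50 ± 0.05 there and from 11.27 to 11.91 elsewhere, a difference of 0.96. The shared probe sets averaged 9.98 and 9.23, differences of 0.51 and 0.98. Gnaq averaged 7.22, a difference of 0.43. The excess of Gnai1, at 4.61, was the largest of the 6, and the probe sets annotated to Gnai1 and Gnai3 together did not show an excess of that size.

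The tested genes nearest to each member in the gene order of GRCr8 were read for the same pattern. Around Gnai1, 5 of 10 neighbours had their highest line mean in series 42, where 31.3% of all tested genes did. The count was 1 of the 5 before Gnai1 and 4 of the 5 after it. Counts this small are not read as a cluster. Cacna2d1, a calcium channel subunit, averaged 10.21 in series 42 and from 6.02 to 7.52 elsewhere. Sema3c, a secreted semaphorin, averaged 11.66 against 8.87 to 10.58, and Fgl2, a fibrinogen-like protein, averaged 8.35 against 5.94 to 7.19. Crot, a peroxisomal acyltransferase, averaged 9.21 against 7.78 to 8.63, and Abcb4, a phospholipid transporter, 7.83 against 6.71 to 7.05. Grm3, which lies between Cacna2d1 and Crot, was not highest in series 42. The same count was 5 of 10 around Gnai2, 3 of 10 around Gnas and 3 of 10 around Gnaq, so the count around Gnai1 did not exceed that around Gnai2, while the excess of Cacna2d1, at 3.65, was the largest among the 40 neighbours.

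**Figure D4:**
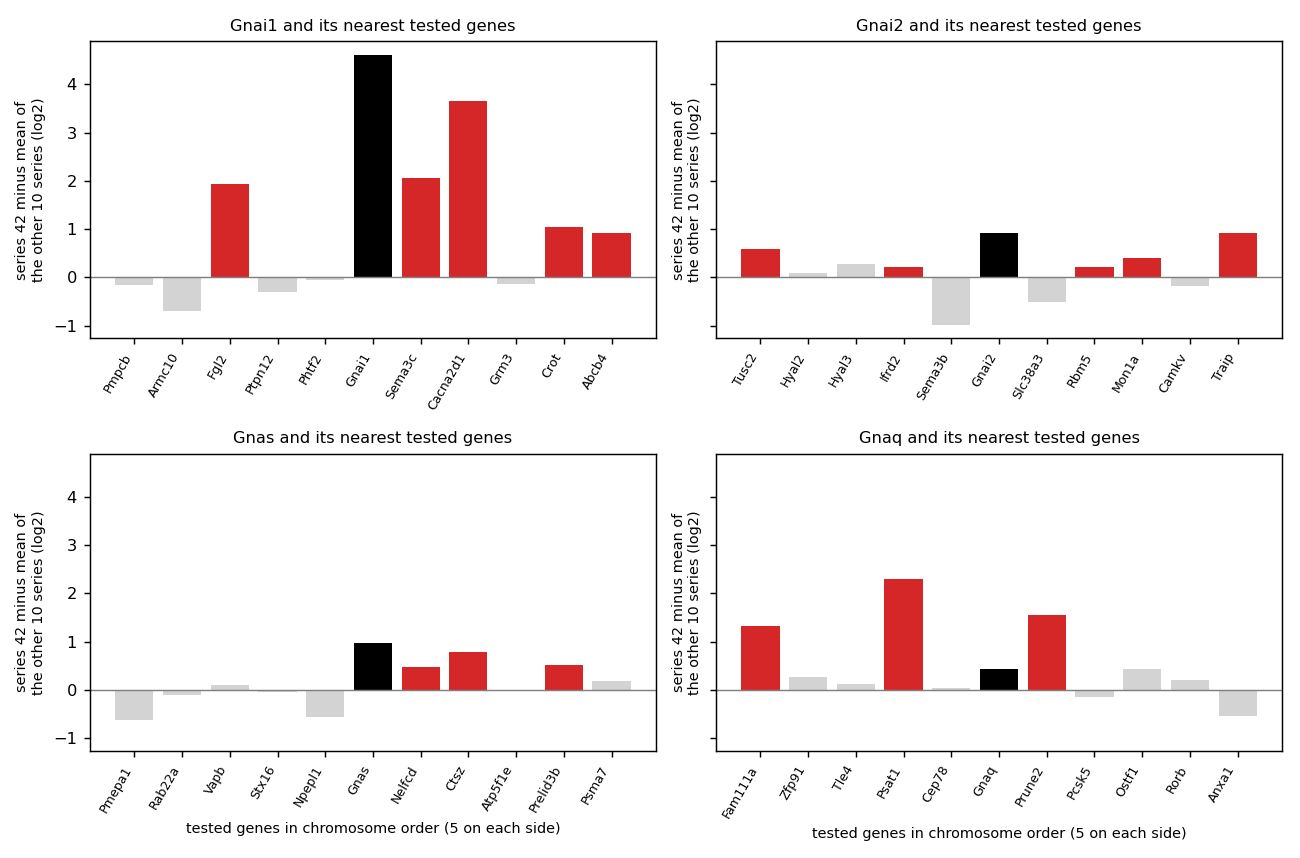
Mean of series 42 minus the mean of the other 10 lines (log2, vertical axis, bars from 0) for each member (black) and the 5 nearest tested genes on each side in chromosome order; red bars are neighbours whose mean in series 42 was above that of every other line, grey bars the rest. Gnai1 at 4.61 and Cacna2d1 at 3.65 are the tallest bars.

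Between transplants and primary tumors 4 of the 40 neighbours (10%) passed limma's test, near the 9.50% of all tested genes. None of the 10 around Gnai1 passed limma's test (4 at an unadjusted p under 0.05): Cacna2d1 changed by 0.49 ± 0.17 (SE; limma adjusted p = 0.0592) and Sema3c by -0.42 ± 0.18 (limma adjusted p = 0.122). Around Gnai2, Slc38a3 rose by 0.30 ± 0.10 (limma adjusted p = 0.049), and Hyal3 and Sema3b fell by 0.63 ± 0.13 and 1.78 ± 0.34. Around Gnaq, Fam111a rose by 0.56 ± 0.12. None of the 10 around Gnas passed (2 at an unadjusted p under 0.05).

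After each line's mean was subtracted, the dimmer shared probe set followed Gnai1 with a Pearson r of 0.57 over the 65 arrays, and the brighter with 0.31. Gnaq followed Gnai1 with 0.43, Gnas with 0.22 and Gnai2 with -0.01. Gnai2 and Gnas followed each other with 0.63, and Gnaq and the dimmer shared probe set with 0.59. These values describe arrays that share 11 lines and a common scaling, and include the difference between primary tumors and transplants.

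The 10 tested genes with the highest such correlation with Gnai1 were Lrrc59 (0.78), Bag1 (0.77), Ehd1 (0.69), Pbx3 (0.64), Clta (0.64), Psmd9 (0.64), Ap3s1 (0.63), Mocs2 (0.63), Rab1a (0.63) and Cox6a1 (0.62). Lrrc59 is a membrane protein of the endoplasmic reticulum, Bag1 a co-chaperone of Hsp70, Ehd1 a protein of endocytic recycling, Clta the clathrin light chain and Rab1a a GTPase of transport to the Golgi. Without series 42 their values lay between 0.62 and 0.77. Each was higher in the transplants, by 0.20 (Rab1a) to 0.57 (Pbx3), which is less than Gnai1. That rise is part of what the correlation measures and is no separate support. For Gnai2 the 3 closest were Cd63 (0.74), Fxyd5 (0.72) and Bnip2 (0.70). For Gnas they were Ilk (0.82), Eid1 (0.78) and Fkbp10 (0.78), and for Gnaq Thap11 (0.72), Fads1 (0.68) and Nup37 (0.63). None of these 19 genes was named for more than 1 member. Lists this short, drawn from 8499 tested genes, would seldom share a gene in any case, so this is not read as a result.

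The rest of the G protein and cyclic AMP pathway was read from 13 lists holding 138 tested genes besides Gnai1. Between transplants and primary tumors 4 of the 138 were higher and 5 lower, together 6.52%, against 9.50% of all tested genes. Along the transplants 1 rose and 1 fell, together 1.45%, against 4.82%. Of the 16 G alpha genes listed, 11 were on the arrays and 9 were tested. The 8 besides Gnai1 (Gnai2, Gnas, Gnaq, Gna11, Gna12, Gna15, Gnao1 and Gnaz) did not pass limma's test, at an adjusted or an unadjusted p under 0.05, and had changes from -0.09 (Gnaz) to 0.24 (Gnaq). The median of the 9 was 0.06, against 0.01 over all tested genes.

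Of the subunits that pair with G alpha, 1 of 4 G beta genes and 0 of 5 G gamma genes passed, against 9.50% of all tested genes. Gnb4 rose by 0.37 ± 0.12 (SE; limma adjusted p = 0.0423; 9 of 11 lines). Among RGS proteins, which speed GTP hydrolysis, 0 of 12 passed, and among other regulators of G alpha 0 of 8. At an unadjusted p under 0.05 these counts were 4 of 4 for G beta, 0 for G gamma, 1 for RGS proteins and 4 for the other regulators. The share of all genes at an unadjusted p is not given, so these counts are not read as an excess.

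Of the enzymes that make cyclic AMP, 2 of 5 adenylyl cyclases rose. Of all tested genes 4.44% rose and 5.06% fell. Adcy3 rose by 0.31 ± 0.09 (limma adjusted p = 0.0288; 9 of 11 lines) and Adcy10, the soluble cyclase that G proteins do not regulate, by 0.24 ± 0.07 (limma adjusted p = 0.021; 9 of 11 lines). Of 10 phosphodiesterases, which degrade cyclic AMP, 2 fell: Pde2a by 0.36 ± 0.10 (limma adjusted p = 0.0131; 9 of 11 lines lower) and Pde4b by 0.53 ± 0.17 (limma adjusted p = 0.0342; 8 of 11 lines lower). Pkig, an inhibitor of protein kinase A, fell by 0.36 ± 0.11 (limma adjusted p = 0.0261; 10 of 11 lines lower), and was 1 of 9 in its list to pass. Along the transplants Prkacb, a catalytic subunit of that kinase, rose by 0.11 ± 0.03 per transplant (limma adjusted p = 0.0466), and Pkib, another of its inhibitors, fell by 0.24 ± 0.07 (limma adjusted p = 0.0405). These 2 were the only genes of the pathway lists besides Gnai1 to pass in slope, 1.45% against 4.82% of all genes. Between transplants and primary tumors the share over the pathway lists was also lower, 6.52% against 9.50%. The calls are therefore not read as a shift of the pathway.

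Of 67 receptors 3 passed (4.48%, against 9.50% of all tested genes). Of 25 Gi-coupled receptors Htr1b, a serotonin receptor, rose by 0.32 ± 0.08 (limma adjusted p = 0.00679; 11 of 11 lines). Of 23 Gs-coupled receptors Adrb1, an adrenergic receptor, fell by 0.31 ± 0.09 (limma adjusted p = 0.0227; 11 of 11 lines lower). Of 19 Gq-coupled receptors Agtr1a, an angiotensin receptor, fell by 1.26 ± 0.19 (limma adjusted p = 2.81e-05; 9 of 11 lines lower). In the lists of phospholipase C beta (4 genes) and of receptor kinases and arrestins (6 genes) none passed, and at an unadjusted p under 0.05 the counts were 0 and 2, in that order.

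**Figure D5:**
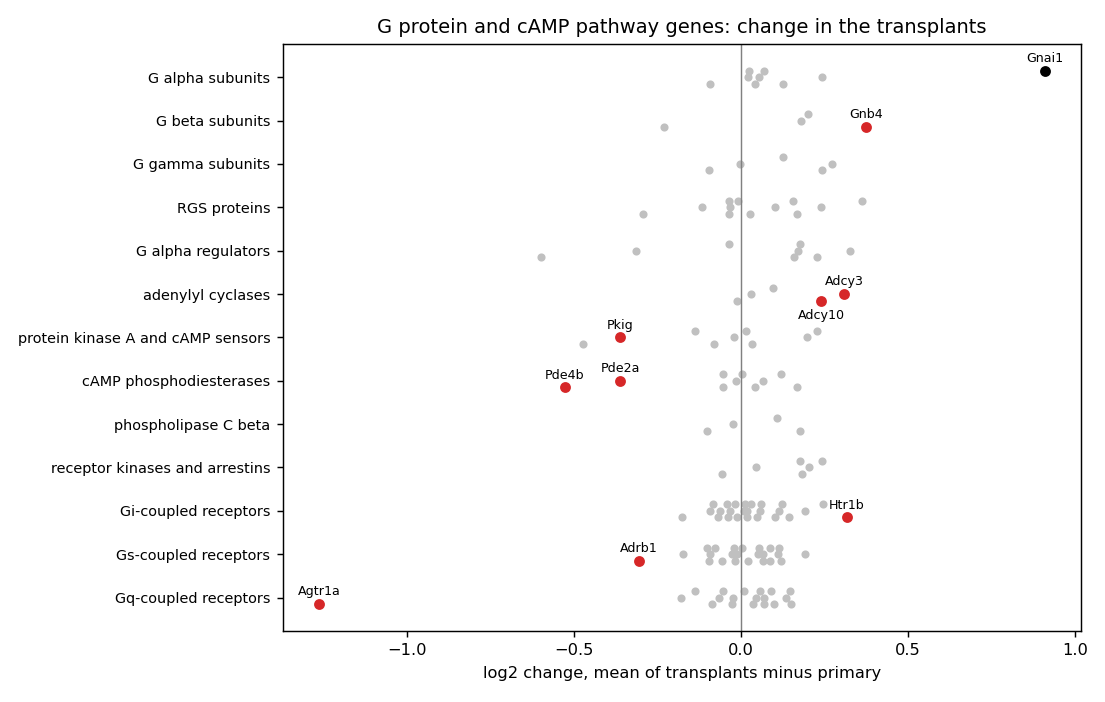
Log2 change between the mean of the transplants and the primary tumors (horizontal axis) of the tested genes of 13 pathway lists (rows; 138 besides Gnai1), each point a gene; red points passed limma's test after adjustment, grey points did not, and Gnai1 (black) carries no test. Gnai1 lies at 0.91 and Agtr1a at -1.26, and the other points lie between -0.60 and 0.37.

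At transplant 5, 6 of the 138 were higher and 4 lower than in the primary tumors, together 7.25%, against 14.1% of all tested genes. The genes that passed there and in no earlier comparison were Gnb2 (0.35), Grk6 (0.49), Cxcr4 (0.39), Oprl1 (0.39) and Rgs12 (-0.28), and they are named after their values were seen. Grk6 is a receptor kinase and Cxcr4 the receptor of the chemokine Cxcl12.

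Markers of cell types moved over the same comparisons. Between transplants and primary tumors 4 of 15 luminal markers fell, against 5.06% of all tested genes, with a median change of -0.68. Against 6.72% of genes, 9 of 15 luminal markers fell at transplant 5. Their summed intensity ran from 1109 to 33286 in the primary tumors and from 1030 to 27116 in the transplants. Of 15 fibroblast markers 0 passed, with a median of 0.44, and their sums ran from 4391 to 53413 and from 3038 to 88459. Of 7 macrophage markers 0 passed, with a median of 0.27, and 1 fell at transplant 5. Of 2 granulocyte markers 1 rose, and at transplant 5 1 rose and 1 fell. Of 6 skeletal muscle markers 1 fell in both comparisons. Of 7 T and NK cell markers 0 passed, and 1 rose at transplant 5. Of all tested genes 4.44% rose, and 7.37% at transplant 5. Of 10 basal myoepithelial markers 0 passed, with a median of -0.14, and 1 fell at transplant 5. At an unadjusted p under 0.05, the counts were 2 fibroblast, 3 macrophage and 1 basal markers. The log2 ratio of the 3' to the 5' Gapdh probe sets, a sign of RNA quality, had a median of 0.05 in the primary tumors and 0.15 in the transplants, with overlapping ranges. With that ratio as a covariate the Gnai1 slope, a contrast among the transplants alone, was 0.15 (limma adjusted p = 0.0509). The Gnai1 difference between transplants and primary tumors stayed between 0.83 and 0.98 over the alternative settings, that covariate among them. Because the median ratio itself differed between these groups, that setting does not separate RNA quality from passage. The part of the cell type and RNA quality differences in the Gnai1 rise was not tested.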

How the data were processed

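Total RNA from frozen tumor tissue was labelled with biotin and hybridised to 1 array per tumor, per the labels' protocols. The authors deposited linear probe set intensities between 1 and 12011. Probe summarisation and array normalization by the authors are not given in the sources used here, and no detection call was used. 57 control probe sets were left out. Arrays were brought to a common median of 162, values under the pooled 10th percentile were set to it, and log2 of the deposited intensity was taken. A gene was read from its brightest probe set with 1 symbol (12783 had 1, 312 several and 2771 none), and the lowest 25% by mean were not tested. The 2 probe sets shared by Gnai1 and Gnai3 were tested in a fit over all probe sets.

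limma 3.58.1 in R 4.3.3 fitted generation and series together, with Benjamini-Hochberg adjustment over all features and a two-sided threshold of 0.05. The series was a block because the design text describes lines of descent; arrays of 1 series deviated with a mean correlation of 0.38, against -0.04 between series. The fit treats tumors of a line as independent after that. The slope used transplants 1 to 5. Slopes of member pairs were compared by exact sign-flip tests over 11 lines. Nothing besides the line and the passage tells how tumors of a generation were sampled, so p-values measure the spread between these tumors. The number of arrays limits the precision.

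The members, the lists and the tests were chosen with earlier results of these data known. Genes named besides the members were those of the lists past the threshold in the transplants or the slope (at most 4 per list), the 10 genes most like Gnai1 and 3 most like each other member by Pearson correlation after subtracting line means, and the 5 nearest tested genes on each side. Gene order, names and promoters came from RefSeq (GRCr8), whose other coordinates were not used. The scripts were tested on simulated data. Alternatives covered scaling, floor, filter, block, weights, an RNA quality covariate, the choice of probe set, left-out generations and left-out lines; leaving out the dim transplant 5 array of series 32 was added after seeing the data.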

Additional observations from a re-analysis of the deposited data

Results flagged for a closer look

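Only transplant 5, with 10 tumors, was of a size at which a tumor far from the others was looked for (by Dixon's ratio of gap to range). Of the 6 tested probe sets, Gnai1 alone had one: its level of 11.63 in the transplant 5 tumor of series 42 lay far above the other 9, which read at most 7.45. Chance marks about 1 in 20 such groups. This tumor was not alone in its line, as every array of series 42 read at least 10.34 for Gnai1. The other 59 arrays read at most 7.80, so the flag repeats the line difference given above.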

How the results depend on the processing

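The Gnai1 rise and the values of its relatives kept their direction under the alternatives that gave a value, with these exceptions. Gnai2 between transplants and primary tumors was -0.026 after quantile normalization. Gnas at transplant 5 was -0.012 after quantile normalization, -0.0069 without rescaling and -0.0046 with array weights. Gnaq at transplant 5 was -0.22 with no floor, -0.025 with 25L and 25R averaged, and from -0.017 to 0.20 with 1 line left out. The Gnaq slope was 0.012 without transplant 5. None of these passed a test in either direction. The cause was not tested.

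The Gnai1 slope lost its call with values of 0.15 (quantile normalization), 0.13 (no rescaling), 0.15 (no filter), 0.16 (no replicate block), 0.15 (series as a random block), 0.17 (1 value per series), 0.19 (the same with 25L and 25R averaged), 0.15 (array weights), 0.15 (Gapdh ratio as a covariate), 0.15 (every probe set), 0.066 (without transplant 1), 0.21 (without transplant 5) and 0.16 (without the transplant 5 array of series 32). With 1 line left out it was 0.13 to 0.17, and it lost its call without series 10, 13, 17, 19, 32, 34, 36 or 42. The slope difference from Gnas passed at 0.15 (quantile normalization), 0.13 (no rescaling), 0.14 (no floor), 0.16 (25L and 25R averaged) and 0.15 (mean of the gene's probe sets), and was 0.093 to 0.16 with 1 line left out. That from Gnai2 was 0.094 to 0.16 with 1 line left out.

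The replicate block moved the counts of all genes: without it 85 passed between transplants and primary tumors, 37 at transplant 5 and 0 in slope. Between transplants and primary tumors the count was 135 with 1 value per series, 5 with 25L and 25R averaged, 331 with array weights, 407 with the Gapdh ratio and 488 to 823 with 1 line left out. At transplant 5 it was 133, 31 and 307 in the first 3 of these settings and 768 to 1273 with 1 line left out. In slope it was 265 with no filter, 122 with a random block, 4 with array weights, 0 with 1 value per series, 0 with 25L and 25R averaged, 7 without transplant 1, 2 without transplant 5, 72 without the dim array of series 32 and 3 to 813 with 1 line left out. Without rescaling 28.7% of the called genes were higher in the transplants, against 46.7%; at transplant 5 16.7% against 52.3%; in slope 14.4% against 42.2%, and 31.3% after quantile normalization. Differences among series in slope numbered 5596 with array weights, where Gnai2, Gnas and both shared probe sets passed, and 846 to 2298 with 1 line left out. Gnai1 and Gnaq did not pass the filter at the median, so that setting gave them no value. Probe sets near the floor limit what the dim members can show.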
